A study of Mus musculus with 6 samples.

Results

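The genes described here are 10 transcripts that the tumour suppressor p53 is known to induce, Mdm2, Ccng1, Zmat3, Trp53inp1, Bbc3, Bax, Aen, Phlda3, Eda2r and Sesn2. They were chosen by gene symbol out of 53599 symbols in the count table, and all 10 passed the filter on low counts, which left 12691 genes. RNA-Seq was performed on mouse hepatocytes harvested 4 days after adeno-associated virus (AAV8) was injected. Mice received either AAV8-TBG-HA-Sox4-P2A-Cre (Sox4, 3 libraries) or AAV8-TBG-Cre (empty vector, EV, 3 libraries). The former carries HA-tagged mouse Sox4 and Cre recombinase, and the latter carries Cre and no Sox4. By the study's methods the empty vector also holds a U6 guide RNA backbone, and the Sox4 vector was built in a different plasmid. The TBG promoter limits expression to hepatocytes, and the cells were enriched on Percoll after liberase digestion, so the libraries are bulk hepatocyte preparations. The labels give the genotype as WT for EV and as Sox4 for the other group. By the study's methods the mice carried Rosa-LSL-Cas9-EGFP on a C57BL/6J background, so that Cre was delivered to both groups and would switch on Cas9 and EGFP in both, and a vector dose for the RNA-Seq animals is stated for Sox4 only. The study used male mice, aged 4 to 8 weeks in its experiments with exogenous Sox4. It describes the RNA-Seq replicates as animals, although the labels do not tie each library to a mouse, and p-values measure the spread between these libraries.

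p53 is a transcription factor that is kept scarce by its own target Mdm2, a ubiquitin ligase that marks p53 for degradation. When DNA damage, oncogene activity or ribosomal stress releases it from Mdm2, p53 binds paired decamer sites and raises genes for cell cycle arrest, apoptosis, DNA repair and metabolic restraint. In the liver it is known for restraining hepatocyte proliferation and for hepatocyte loss after injury.

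Total counts were 15090629 to 16249382 in EV and 16679195 to 16964860 in Sox4, and the 10 genes together held 8486 to 9802 counts per EV library and 22051 to 29109 per Sox4 library. Sox4, the delivered gene, was counted 2, 0 and 3 times in EV 1 to 3, and 21697, 15097 and 11816 times in Sox4 1 to 3. Sox4 replicate 1 stood apart in its group, with fewer mitochondrial mRNAs and higher p53 targets, and values without it are given. Levels are CPM, read counts as a share of library size, in parts per 1000000, after trimmed mean of M-values (TMM) scaling, and a gene is said to rise or fall only where its edgeR adjusted p was under 0.05. That scale matters here, since 52.7% of all changed genes were higher with TMM and 79.9% were higher with library size alone, and the typical tested gene (median) had a log2 fold change of 0.04 and 0.51 in turn.

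The promoter letters of the genes were searched for the site that p53 recognizes. RefSeq promoter windows of 300 bases (GRCm38.p6, 250 before to 50 after a start site) were held for 8 of the 10 genes, as 11 windows, and Zmat3 and Trp53inp1 were not matched. Each window was searched on both strands for the p53 consensus, a pair of 10-base decamers with 0 to 13 bases between them. No window of these genes held it without a mismatch. Ccng1 and Bax held it with 1 mismatch, as did 1.09% of all 32851 windows, Aen with 2, as did 10.1% with 2 or fewer, and Bbc3 with 3, as did 45.1% with 3 or fewer. The best matches in Mdm2, Phlda3, Eda2r and Sesn2 had 4 mismatches, a level that 89.3% of windows reached. Best matches are shown for the 4 genes with fewest mismatches and for Mdm2 and Eda2r, 5′ to 3′ on the gene's strand, with bases that fit the consensus in capitals and spacer and misfitting bases in lower case:
Ccng1, chr11:40755462-40755481, minus strand: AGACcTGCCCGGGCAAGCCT
Bax, chr7:45467090-45467110, minus strand: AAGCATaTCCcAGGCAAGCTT
Aen, chr7:78895937-78895963, plus strand: GGGCTTGTCCgggcaagGAGCTTcCgC
Bbc3, chr7:16309486-16309505, plus strand: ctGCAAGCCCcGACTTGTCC
Mdm2, chr10:117710923-117710944, minus strand: GAACTTGCCTagcGACcAtTgC
Eda2r, chrX:97377411-97377431, minus strand: AGAtTAGgCTaGAtCTAaCTT

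The Ccng1 match began 195 bases before the start site and joined its decamers with no spacer, and the Bax match began 212 bases before with a spacer of 1 base. The whole windows of these genes are given with the match in capitals, since they were the closest to the consensus:
Ccng1, chr11:40755237-40755536, minus strand: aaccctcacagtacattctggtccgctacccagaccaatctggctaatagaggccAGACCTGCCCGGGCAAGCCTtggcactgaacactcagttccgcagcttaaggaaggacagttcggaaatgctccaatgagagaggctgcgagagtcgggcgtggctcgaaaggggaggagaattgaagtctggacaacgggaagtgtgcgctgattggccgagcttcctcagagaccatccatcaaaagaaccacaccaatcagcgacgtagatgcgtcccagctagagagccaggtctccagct
Bax, chr7:45466849-45467148, minus strand: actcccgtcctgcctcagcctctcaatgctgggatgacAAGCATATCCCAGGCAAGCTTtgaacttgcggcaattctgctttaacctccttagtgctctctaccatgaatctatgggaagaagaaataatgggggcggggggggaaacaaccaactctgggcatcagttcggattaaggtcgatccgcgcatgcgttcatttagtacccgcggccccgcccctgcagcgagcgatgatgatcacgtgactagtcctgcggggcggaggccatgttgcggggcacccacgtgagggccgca

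A decamer without mismatch was present in the windows of Mdm2, Ccng1, Bax and Aen, and in 8.36% of all windows. Sox core letters were rarer. AACAAAG was found on either strand in the Mdm2 window only of the 11, against 5.85% of all windows, and AACAATG in 1 of the 3 Bbc3 windows, against 3.78%. These matches describe letters in short windows and draw nothing about binding, and sites in introns or further away lie outside them.

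Sox4-expressing hepatocytes held more RNA from most of these genes. Of the 10 genes, 7 rose and none fell by the edgeR quasi-likelihood test (29.0% of all 12691 tested genes were higher, 26.0% were lower and 55.1% changed in either direction). In 8 of the 10 every Sox4 library lay above every EV library, against 33.1% of all tested genes, where 63.0% did not overlap in either direction and 29.9% were lower throughout. The risers were Eda2r, Zmat3, Trp53inp1, Bax, Sesn2, Phlda3 and Mdm2, and Ccng1, Aen and Bbc3 did not pass the threshold. The median log2 fold change of the 10 was 0.81, against 0.04 over everything tested. With library size alone these medians were 1.28 and 0.51, and 9 of the 10 passed as higher, all but Bbc3, where 51.0% of all tested genes were higher. In bulk samples a change in RNA per cell and a change in the number of cells that hold it cannot be told apart.

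**Figure D1:**
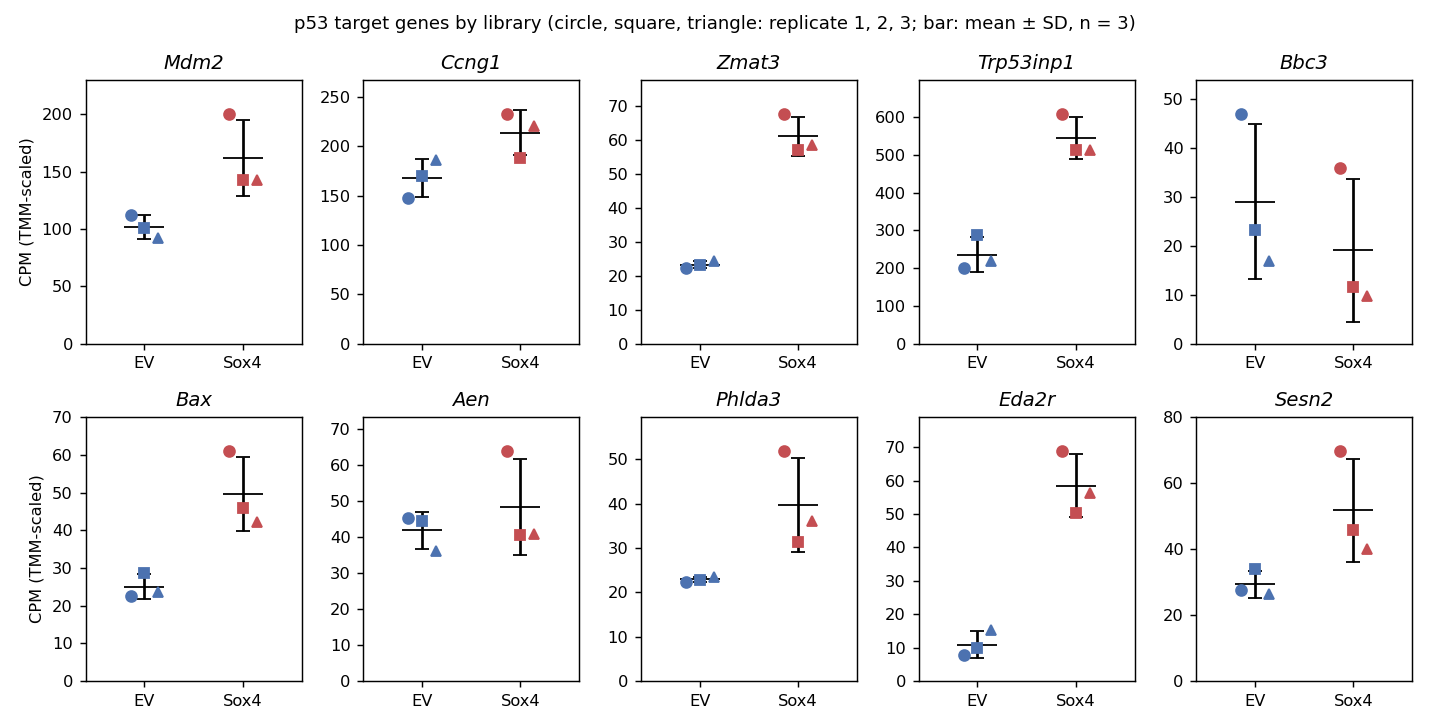
CPM (TMM-scaled, linear axes from 0) of each of the 10 genes in the 3 EV and 3 Sox4 libraries, with points for libraries and bars for mean ± SD (n = 3). Groups are apart in 8 panels and overlap for Bbc3 and Aen, and Sox4 replicate 1 (circle) is the highest Sox4 library in every panel.

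The genes that act back on p53 or on RNA were taken first. Mdm2, which closes the feedback loop on p53, was at 113, 101 and 91.7 CPM in EV 1 to 3 and at 200.2, 143 and 143 CPM in Sox4 1 to 3. All Sox4 libraries were above all EV libraries, with Sox4 1 set apart from the other two. Mdm2 rose from 102 ± 10.5 to 162 ± 33.1 CPM (SD, n = 3), by a log2 fold change of 0.67 (standard error 0.18, adjusted p = 0.00491), and was at 0.49 without Sox4 replicate 1. Ccng1, cyclin G1, is a p53 target that recruits protein phosphatase 2A to Mdm2. It was at 148, 170 and 186 CPM in EV and at 233, 189 and 221 CPM in Sox4. The groups did not overlap, although the lowest Sox4 library and the highest EV library were close. Its log2 fold change of 0.35 (standard error 0.13, adjusted p = 0.0518) did not pass, and the limma-voom interval of the difference (95%) ran from 0.05 to 0.64, with an adjusted p of 0.0461. Of 14 alternative settings 8 put Ccng1 past the threshold, all as higher, over adjusted p-values of 5.46e-04 to 0.203.

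Zmat3 encodes a zinc finger protein that binds RNA and affects splicing and stability of transcripts. It was at 22.3, 23.3 and 24.3 CPM in EV and at 67.7, 57.2 and 58.7 CPM in Sox4. Libraries of a group differed little and the groups were far apart. The rise was from 23.3 ± 0.99 to 61.2 ± 5.70 CPM, by a log2 fold change of 1.39 (standard error 0.08, adjusted p = 9.32e-06), the smallest SE of the 10 genes. Trp53inp1, a nuclear protein that promotes p53 phosphorylation and takes part in autophagy, was the most abundant of the 10 in CPM in both groups. Its levels were 199, 287 and 219 CPM in EV and 608, 512 and 512 CPM in Sox4. Every Sox4 library was well above the highest EV library, EV 2. The log2 fold change was 1.21 (standard error 0.18, adjusted p = 2.10e-04).

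The genes of the apoptotic arm did not move as one. Eda2r, a receptor of the TNF receptor family for the ligand ectodysplasin A2, was the lowest of the 10 in EV, at 7.63, 9.72 and 15.3 CPM, and reached 68.8, 50.4 and 56.5 CPM in Sox4. The groups were widely apart, with more relative spread among EV than among Sox4 libraries. Eda2r rose from 10.9 ± 3.98 to 58.5 ± 9.35 CPM, which is 5.36-fold (log2 fold change 2.42, standard error 0.32, adjusted p = 5.30e-05) and at percentile 93.5 of the log2 fold changes of all tested genes. Without 1 library in turn its log2 value lay between 2.21 and 2.74. Eda, which encodes the ligand and its longer form, had 13 to 28 counts in a library and did not pass (log2 fold change -0.82, adjusted p = 0.114).

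Bax, the effector that permeabilizes the outer mitochondrial membrane, was at 22.6, 28.7 and 23.7 CPM in EV and at 60.9, 45.9 and 42.2 CPM in Sox4. No libraries of the groups overlapped. The log2 fold change of Bax was 0.99 (standard error 0.19, adjusted p = 6.36e-04), a fold of 1.99. In GENCODE M21 192 exonic bases of Bax also lie in an annotated gene on the same strand, Gm45808, which was listed with no count in any library. Phlda3, which competes with Akt for membrane lipids, was at 22.3, 22.9 and 23.5 CPM in EV and at 51.7, 31.3 and 36.0 CPM in Sox4. EV libraries were nearly equal, and Sox4 1 stood above the other Sox4 libraries. Phlda3 rose with a log2 fold change of 0.79 (standard error 0.22, adjusted p = 0.00412), and the value was 0.55 without Sox4 replicate 1.

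Aen, a nuclease that acts in apoptosis, was at 45.1, 44.5 and 35.9 CPM in EV and at 63.7, 40.4 and 40.7 CPM in Sox4. Sox4 1 was the highest of all, while Sox4 2 and 3 lay within the EV range. The log2 fold change was 0.21 (standard error 0.24, adjusted p = 0.377), the interval by limma-voom ran from -0.24 to 0.60, and the value was -0.05 without Sox4 replicate 1 and 0.68, past the threshold, with library size alone. Bbc3, which encodes PUMA, a BH3-only activator of apoptosis, was at 46.8, 23.2 and 16.8 CPM in EV and at 35.9, 11.6 and 9.68 CPM in Sox4. Replicate 1 was the highest library in both groups, and the groups overlapped. The log2 fold change was -0.60 (standard error 0.73, adjusted p = 0.468) and the interval by limma-voom ran from -2.25 to 0.82, the widest of the 10. It was -1.44 without Sox4 replicate 1 and -0.09 without EV replicate 1. Bbc3 was thus the gene with a level below EV on both scales, at -0.13 with library size alone, and neither value passed.

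Sesn2, a sestrin that restrains mTORC1 and senses leucine, was at 27.6, 34.1 and 26.4 CPM in EV and at 69.6, 45.7 and 40.1 CPM in Sox4. The groups did not overlap and Sox4 1 was again the highest. Sesn2 rose with a log2 fold change of 0.82 (standard error 0.27, adjusted p = 0.00839), which was 0.54 without Sox4 replicate 1, still past the threshold. Sesn2 is also a known target of ATF4, the factor of the integrated stress response, so ATF4 and 9 related genes were set beside it. Of 9 tested genes 1 rose and 4 fell (29.0% and 26.0% of all tested genes). With library size alone 3 were higher, against 51.0% of all tested genes, and 3 lower, against 1624 of 12691. Atf4 itself was at 102 ± 31.0 CPM in EV and 64.3 ± 17.7 CPM in Sox4. Its groups overlapped and it did not pass (log2 fold change -0.67, standard error 0.33, adjusted p = 0.0538). Ddit3 (0.56), Ppp1r15a (0.23) and Ddit4 (-0.71) did not pass either. Atf3 rose from 6.91 ± 3.79 to 101 ± 26.3 CPM (log2 fold change 3.87, standard error 0.58, adjusted p = 4.13e-04). Chac1, a glutathione-degrading enzyme (-4.46), Atf5 (-1.67) and Asns, asparagine synthetase (-1.65), fell on the log2 scale.

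**Figure D2:**
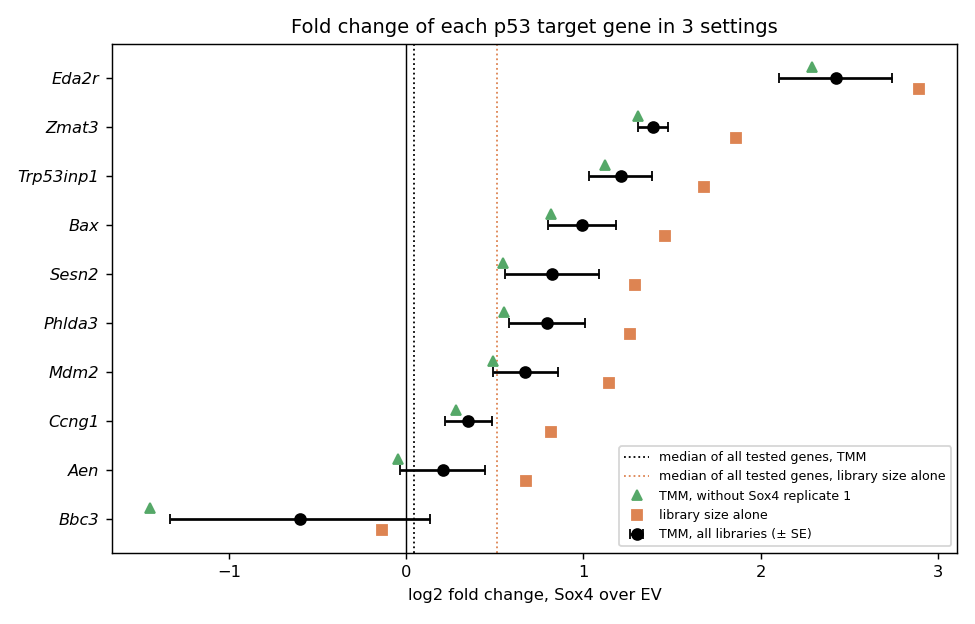
Log2 fold change of Sox4 over EV for each of the 10 genes, as TMM values with SE (black), TMM values without Sox4 replicate 1 (green) and values with library size alone (orange), with dotted lines at the median of all tested genes. The 7 genes that passed lie above the median of their scale in every setting drawn, and Bbc3 lies below 0 in all 3.

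Variation within the Sox4 group was shared. Sox4 replicate 1 had the highest CPM of the Sox4 libraries for 10 of 10 genes, against 40.1% of all tested genes that were highest in that library. Among EV libraries the highest was EV 1 for 3 genes, EV 2 for 3 and EV 3 for 4. The highest Sox4 library exceeded the lowest by 1.18-fold for Zmat3, 1.19-fold for Trp53inp1, 1.65-fold for Phlda3, 1.74-fold for Sesn2 and 3.71-fold for Bbc3. Sox4 replicate 1 also had the most Sox4 counts of its group. Its mitochondrial mRNAs summed to 31871 CPM, against 50094 and 52758 CPM in Sox4 2 and 3 and 54126 to 60604 CPM in EV, and the part of either in this pattern was not tested. Without this library 7 of the 10 genes still rose, the same 7, against 3751 of 13074 tested genes. The median log2 fold change over the 10 was then 0.55.

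**Figure D3:**
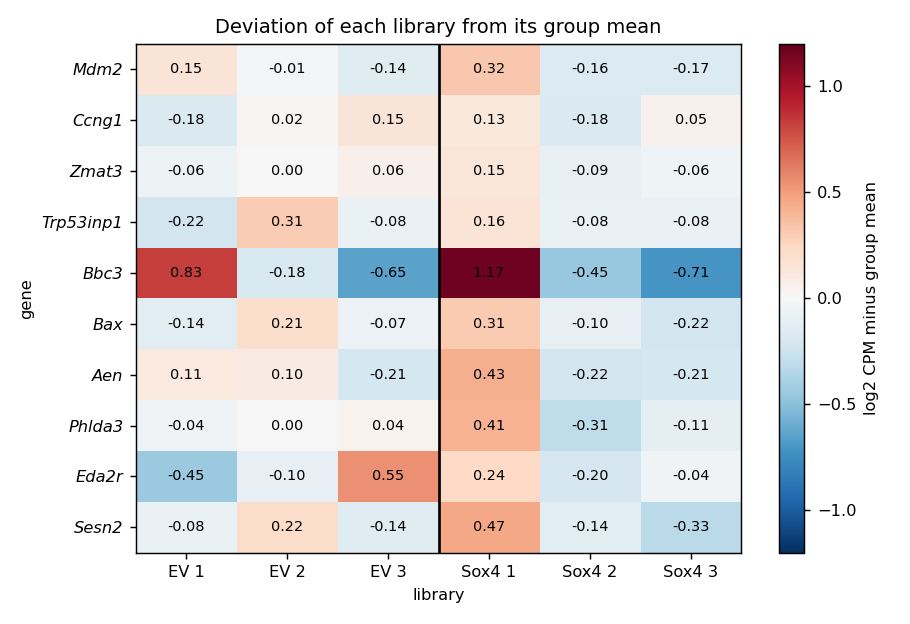
Deviation of log2 CPM from the group mean for each of the 10 genes (rows) and 6 libraries (columns), with the value in each cell. The Sox4 1 column is above 0 for every gene, from 0.13 for Ccng1 to 1.17 for Bbc3, while the EV columns hold both signs.

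Levels between genes were compared per length, as mean CPM per kilobase of annotated exon (GENCODE M21, GRCm38). In EV, Ccng1 (47.9 ± 5.44 per kb) and Trp53inp1 (36.3 ± 7.15) stood highest, and Mdm2 (19.995 ± 2.06), Bax (15.9 ± 2.07), Phlda3 (14.7 ± 0.40) and Bbc3 (13.6 ± 7.46) followed. Bax, Phlda3 and Bbc3 did not differ beyond their spread, and the spread of Bbc3 also reached Mdm2. Sesn2 (8.45 ± 1.196) and Aen (7.21 ± 0.88) were lower and within their spread of each other. Zmat3 (2.04 ± 0.09) and Eda2r (1.85 ± 0.68) were lowest, and also within their spread of each other. In Sox4 the level of Trp53inp1 (84.0 ± 8.52 per kb) was above that of Ccng1 (61.0 ± 6.50). Mdm2 (31.9 ± 6.52) and Bax (31.5 ± 6.28) were alike within their spread, and Eda2r (9.94 ± 1.59) lay above Zmat3 (5.35 ± 0.50). The exon lengths are those of another build and annotation than the counts used.

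A wider list of 31 other p53-induced genes was then described, of which 30 were tested. In it 16 rose and 7 fell (29.0% and 26.0% of all tested genes), with a median log2 fold change of 0.65. With library size alone 20 were higher, against 51.0% of all tested genes, and 5 lower, against 1624 of 12691. Without Sox4 replicate 1 there were 13 higher and 8 lower, against 3751 and 3518 of 13074 tested genes. Cdkn1a, which encodes the cyclin-dependent kinase inhibitor p21, was at 120, 136 and 106 CPM in EV and at 465, 289 and 279 CPM in Sox4. Each Sox4 library was above the highest EV library, again with Sox4 1 on top, and the log2 fold change was 1.51 (standard error 0.26, adjusted p = 2.45e-04). Pmaip1, which encodes the BH3-only protein NOXA, had 0, 1 and 2 counts in EV and 61, 29 and 73 in Sox4, a ratio of summed depth-scaled counts of 36.6 with an exact interval for counting error alone of 12.3 to 179. Its fitted log2 fold change went from 5.06 to 5.90 without EV replicate 3. Rap2b, a small GTPase (2.55), and Gadd45a, a growth arrest and DNA damage protein (2.29), were the next highest on the log2 scale. The genes that fell most were Gls2, a liver glutaminase (-2.35), Steap3, an endosomal metalloreductase (-1.65), and Dcxr, a dicarbonyl and L-xylulose reductase (-1.57). Perp (-1.48), Sesn1, a sestrin like Sesn2 (-1.197), Triap1 (-0.64) and Ei24 (-0.51) made up the rest of the fallers.

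p53 itself and its regulators were compared next. Trp53, which encodes p53, was at 22.5, 19.4 and 18.7 CPM in EV and at 69.9, 74.5 and 50.9 CPM in Sox4. The groups were far apart, and here Sox4 2 and not Sox4 1 was the highest library. Trp53 rose 3.22-fold (log2 fold change 1.69, standard error 0.19, adjusted p = 2.10e-05). Mdm4, the Mdm2 relative that blocks p53 transactivation, rose from 52.1 ± 7.68 to 82.3 ± 3.83 CPM (log2 fold change 0.66, standard error 0.13, adjusted p = 0.00157). Of the 16 tested genes of this list 11 rose and none fell, with a median of 0.44, against 29.0% and 26.0% of all tested genes. With library size alone 15 were higher, against 51.0%. Beside Trp53, the largest rises were in the checkpoint kinases Chek1 (2.76, adjusted p = 0.00154), with no more than 61 counts per library, and Chek2 (1.18, adjusted p = 0.00487). Trp63, Trp73 and Cdkn2a, with at most 1 count in a library, were below the filter. RNA levels do not show the amount or activity of the p53 protein.

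Other members of the BCL2 family, which decide with Bax and Bbc3 whether the mitochondrial membrane is breached, included larger changes than either. Of 11 tested genes 6 rose and 1 fell, with a median of 0.70, against 29.0% and 26.0% of all tested genes. With library size alone 6 of the 11 were higher, against 51.0% of all tested genes, and none lower, against 1624 of 12691. Without Sox4 replicate 1 there were 2 lower, against 3518 of 13074 tested genes. Bcl2l11, which encodes BIM, was at 5.78, 4.78 and 3.56 CPM in EV and at 46.3, 59.2 and 56.0 CPM in Sox4, and rose 11.4-fold (log2 fold change 3.52, standard error 0.23, adjusted p = 9.29e-07). Bmf, another BH3-only gene, rose 6.49-fold (log2 fold change 2.70, standard error 0.35, adjusted p = 4.87e-05). The anti-apoptotic gene Bcl2 had 0, 1 and 1 counts in EV and 42, 48 and 104 in Sox4, a ratio of summed depth-scaled counts of 65.3 with an exact counting interval of 17.8 to 543. Bcl2l2, an anti-apoptotic relative, fell (-0.58, standard error 0.09, adjusted p = 0.00614) but was at -0.11 with library size alone, not past the threshold.

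Relatives of the 10 genes, which are similar in sequence but are not in the p53 lists, were set beside them together with the ligand gene Eda. Of 10 tested 3 rose and none fell, with a median of 0.27, against 29.0% of all tested genes that were higher. With library size alone 5 were higher, against 51.0%. Sesn3, a sestrin like Sesn2, rose from 60.6 ± 0.68 to 156 ± 21.03 CPM (log2 fold change 1.36, standard error 0.11, adjusted p = 1.72e-05). Ccng2, the relative of Ccng1, rose with a log2 fold change of 1.04 (standard error 0.20, adjusted p = 5.13e-04). Isg20l2, a nuclease related to Aen, was the third relative to rise (0.38, adjusted p = 0.0391), and lost the threshold in each of the 6 fits that left out 1 library. Proliferation genes moved with the same contrast, and all 12 tested rose. Mki67 had 2, 0 and 0 counts in EV and 276, 302 and 252 in Sox4, a ratio of 280 with a counting interval of 77.1 to 2312. The fitted log2 fold change of Mki67 went from 7.92 to 10.91 without EV replicate 1, which held its only EV counts. Ccnb1 and Bub1, with no count in EV, were at least 24.7-fold and at least 4.94-fold higher against a floor of 3 counts per library. Whether the p53 targets and the proliferation genes changed in the same cells was not tested.

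**Figure D4:**
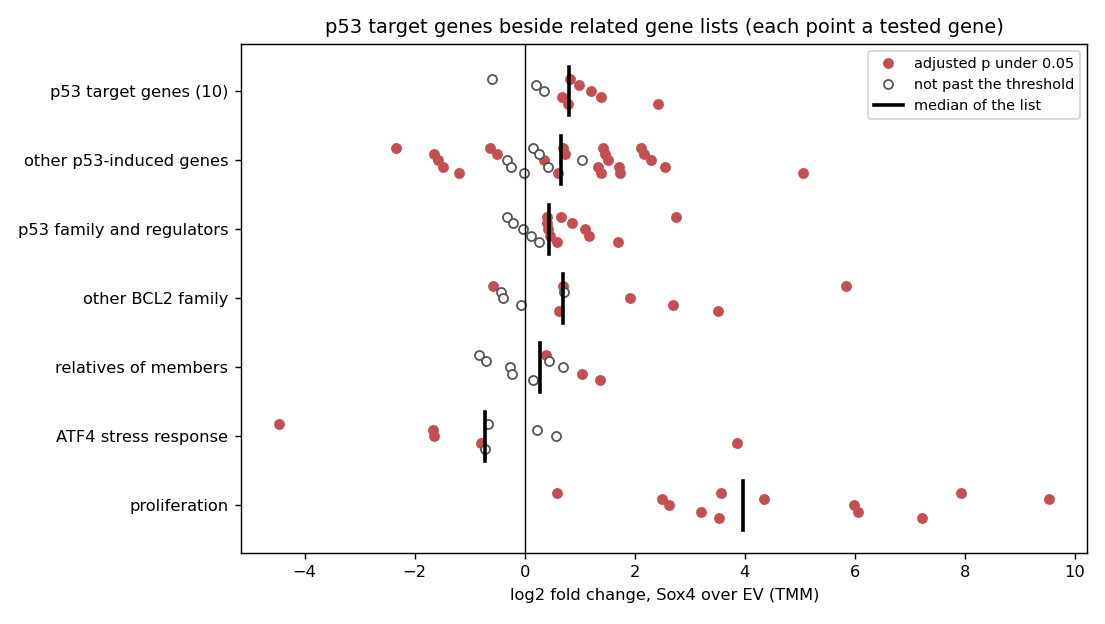
Log2 fold change of Sox4 over EV (TMM) for each tested gene of the 10 p53 targets and of the 6 related lists, filled where the adjusted p was under 0.05, with a bar at the median of each list. The 10 targets range from -0.60 to 2.42 around a median of 0.81, and the proliferation list has the highest median (3.96, or 3.55 with genes at the floor taken at their bound), with single genes from 0.58 upward.

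Among other genes averaging 100 or more counts, those with a pattern over the 6 libraries most like the mean standardized log2 CPM of the 10 were Surf6 (Pearson r = 0.996), Zmat2 (0.994), Sf3a3 (0.993), Apex1 (0.993) and Igsf8 (0.992). The 6 libraries form 2 groups, so these values describe likeness of pattern and carry no test. Each of the 10 genes is itself part of their shared mean, which raises its r. Phlda3 (0.986), Sesn2 (0.978), Mdm2 (0.975) and Bax (0.970) were closest to it. Bbc3 had an r of -0.04 over the 6 libraries, although within its group it too was highest in Sox4 1. Apex1, which encodes a DNA repair endonuclease, was at 5.01, 6.30 and 5.16 CPM in EV and at 15.4, 9.04 and 8.72 CPM in Sox4. Like the 10 genes it was highest in Sox4 1. Its log2 fold change was 1.01 (standard error 0.28, adjusted p = 0.00716), whereas that of Surf6 was 0.31 and did not pass (adjusted p = 0.0938). Igsf8 (0.61, adjusted p = 0.0235) did not pass in 4 of the 6 fits that left out 1 library.

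Markers of the labelled cell type and of other liver cells were checked beside these results, where 29.0% of all tested genes were higher and 26.0% lower. The 6 hepatocyte markers summed to 108221 to 130390 CPM in EV and from 77584 up to 89017 in Sox4, with 4 lower. The 9 Kupffer cell markers all had counts in every library, summed to 11.9 to 27.5 CPM in EV and from 26.5 up to 64.0 in Sox4, and 3 of 8 tested were higher. Within Sox4 the Kupffer, endothelial and lymphoid and neutrophil sums were lowest in Sox4 1. The stellate, cholangiocyte and erythroid sums were highest there, the stellate sum through Reln and the erythroid sum through Alas2. The stellate markers Lrat (10, 34 and 50 counts in Sox4 1 to 3), Pdgfrb, Col1a1, Colec11 (1, 28 and 46 counts) and Hand2 were instead lowest in Sox4 1. Des was not lowest there, and the globin genes peaked in Sox4 2. The 7 endothelial markers summed to 17.5 to 29.0 CPM in EV and from 14.99 up to 34.6 in Sox4, with 2 higher and 1 lower. The 7 stellate markers summed to 7.78 to 39.1 and 58.2 to 128 CPM, mostly from Reln, and 1 of 2 tested was higher. The 7 cholangiocyte markers summed to 27.5 to 43.7 and 71.5 to 84.7 CPM with 2 of 4 tested higher, and Krt7 and Krt19, which define that cell type, had no count in EV and had 2, 1 and 7 counts (Krt7) and 9, 2 and 7 counts (Krt19) in Sox4 1 to 3. The 6 lymphoid and neutrophil markers summed to at most 4.29 CPM in a library, with none of 1 tested past the threshold. The 5 erythroid markers, mostly Alas2, summed to 93.0 to 126 CPM in EV but 4.97 to 15.5 in Sox4. The 1 tested, Alas2, was lower (108 ± 16.7 CPM in EV and 9.91 ± 5.35 CPM in Sox4). The globin genes had higher means in Sox4 than in EV, with at most 22 counts in a library. The part of other cell types in the changes of the p53 targets was not tested.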

How the data were processed

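Hepatocyte RNA was measured by bulk RNA-Seq in 3 EV and 3 Sox4 libraries, and groups and replicate numbers were taken from the sample titles. The authors aligned reads to GRCm39 with STAR (2.7.10b in the submitters' processing notes) and made the deposited counts with featureCounts 2.0.1, with annotation release, strand setting and multi-mapping rule not given in the sources used here. The authors also deposited a normalized signal, which is counts over the DESeq2 median-of-ratios factor of each library, which was used in 1 alternative. Reads were not analysed here.

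Tools were edgeR 4.0.16, DESeq2 1.42.0 and limma 3.58.1, run in R 4.3.3. Genes were kept by filterByExpr (minimum count 10, minimum total 15), scaled by TMM and tested two-sided in edgeR (quasi-likelihood F test, robust, no covariates), with Benjamini-Hochberg adjustment over 12691 genes and a threshold of 0.05. Standard errors (SE) refer to the gap between the groups' mean log2 CPM (prior count 2). Counting intervals and floors (3 counts, 0.150 to 0.231 CPM) cover counting error only. Replicate libraries differed beyond counting noise (chi-square per degree of freedom 17.6 to 62.7), so no library was counted as a copy of another. Fits were tested on simulated data.

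Alternatives were DESeq2 size factors, library size alone, the DESeq2 test, limma-voom, limma on log2(normalized value + 1), no filter, a mean count of at least 50, a replicate block, and leaving out each library. Named were the 10 genes, Sox4, Trp53, Mdm4, Cdkn1a, the 3 largest changes past the threshold in each direction of each list, and the 5 genes most like the 10 in pattern. Eda, Gm45808, Reln, Alas2, Colec11, the genes below the filter and the keratins were named after their values were seen. So were Atf4, Ddit3, Ppp1r15a, Ddit4, Sesn1, Perp, Triap1 and Ei24. The members and lists were chosen with earlier results of these data known.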

Additional observations from a re-analysis of the deposited data

How the results depend on the processing

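The 10 p53 targets had at least 99 counts in every library, while Chek1 and the genes with 3 or fewer EV counts were limited by depth. Of 140 values of single targets under an alternative, 129 kept their direction and side of the threshold, 10 gained the threshold and 1 changed direction. The 7 genes that rose passed in all 14 alternatives. With library size alone Aen (0.68) and Ccng1 (0.82) also passed, the median of the 10 was 1.28, and 5 relatives were called in place of 3, where the median of all genes was 0.51. Ccng1 passed as well with the DESeq2 test (0.34), limma-voom (0.35), limma on normalized values (0.35), no filter (0.39), a mean count of at least 50 (0.38) and without Sox4 replicate 2 (0.43). With no filter 8 genes of the ATF4 list were called in place of 5. All genes called were then 7655 of 24036 tested, in place of 6990 of 12691. The cause of these was not tested. When 1 library was left out, Aen ranged from -0.049 to 0.32, Ccng1 from 0.25 to 0.43, the median of the 10 from 0.55 to 0.92 and the number of targets called from 7 to 8. All genes called ranged from 5937 to 8092 over the alternatives.

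With the replicate block 7362 genes were called in place of 6990, Ccng1 passed (0.35) and Bbc3 passed as lower (-0.71, adjusted p = 0.00233). Deviations of libraries with the same number had correlations of 0.27, -0.09 and 0.13 over genes, and 3 of 6 libraries correlated best with their own number, which gives no pairing beyond the number itself.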
